A study of Rattus norvegicus with 6 samples.

Results

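The adipocyte identity and lipid droplet genes described here are 10 genes, Adipoq, Lep, Retn, Plin1, Cidec, Fabp4, Cebpa, Pparg, Lpl and Pck1. They were taken by gene name from the non-control probes of the array, which carries 12 probes for them among 41012 probes for 35071 gene names in all, on 48 spots. The tissue was synovium from the hind ankle joints of male rats aged 8 weeks with adjuvant arthritis, in which Freund's complete adjuvant (0.1 ml, injected intraperitoneally each day for 18 days per the labels) inflames the joints. The triptolide group (TP, 3 samples) received triptolide, a compound of the vine Tripterygium wilfordii, at 0.4 mg/kg daily for 14 days. The arthritis group (AA, 3 samples) carried the same arthritis and is taken here as the animals given an equal amount of saline. No healthy tissue was analysed here, so every value is from arthritic joints. The labels number the samples within a group but do not say that each came from its own animal, so p-values reflect only how far these samples differ, part of which may be technical.

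Fat lies beneath the lining of the synovium and in the pads around the joint, and its cells store triglyceride in a single large droplet. The fat cell programme is set by the nuclear receptor Pparg together with the transcription factor Cebpa, which switch on genes for droplet coat proteins, fatty acid handling and secreted adipokines. Several of these genes are not private to fat: Fabp4 is also made by capillary endothelium and macrophages, Lpl by muscle and macrophages, and Pparg by macrophages.

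The values rest on 60-base oligonucleotides printed on the array, and their positions below are those of the file headers' build, rn4. Adipoq, Plin1 and the 2 probes of Pck1 are shown because Adipoq and Plin1 mark fat cells most narrowly among the members and Pck1 had the widest range and was read by 2 separate oligonucleotides. Each is printed 5′ to 3′ in lower case, and no base is marked.
Adipoq, chr11:79908475-79908534, minus strand: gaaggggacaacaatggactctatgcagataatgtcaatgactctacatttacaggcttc
Plin1, chr1:135499035-135499094, minus strand: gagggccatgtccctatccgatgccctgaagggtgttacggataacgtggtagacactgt
Pck1, brighter probe, chr3:164017597-164017656, plus strand: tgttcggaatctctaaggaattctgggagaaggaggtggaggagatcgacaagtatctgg
Pck1, second probe, chr3:164017138-164017330, plus strand: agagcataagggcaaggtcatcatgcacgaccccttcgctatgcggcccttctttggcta
The second Pck1 probe spans 193 bases of genome, more than its own length, as a probe that joins exons would, and the probes of Lep, Cidec and Fabp4 likewise span 1625, 5126 and 2415 bases. The probes of the other members lie within 60 bases of genome. Whether each lies in coding sequence or in a UTR was not analysed here.

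Of the 10 genes, 9 were well above background on all 6 arrays and were tested, so the filter on dim probes did not choose among them by group. Lep was well above background on 1 array and was not tested. So 9 of the 10 markers of the fat cell label were detected, with Lep the exception. Of all 41012 probes, 22542 were well above background on all 6 arrays with a value on each. Detection alone does not show which cells made the RNA. Levels are log2 intensity relative to each array's own 75th percentile, so that a level of 0 is that percentile, and the probe with the highest mean signal stands for a gene.

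No member passed the threshold between triptolide and arthritis (adjusted p under 0.05 by limma over 25772 tested probes, 0 of 9 members, adjusted p from 0.994 to 0.996). Over all tested probes 0 passed (0% of them). Before adjustment, 833 probes (3.23%) and 0 members had a p under 0.05. The share of these probes that were higher with triptolide was 61.9%. When arrays were scaled to their medians, 796 probes had such a p by limma, and 51.4% of those were higher. The groups overlapped for each of the 9 tested members, where 8.64% of all tested probes had groups that did not overlap. What varied was the sample: the members were high together in AA 1 and TP 2 and low together in AA 2 and AA 3. In this bulk tissue, fewer fat cells and less RNA of these genes per fat cell cannot be told apart.

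**Figure D1:**
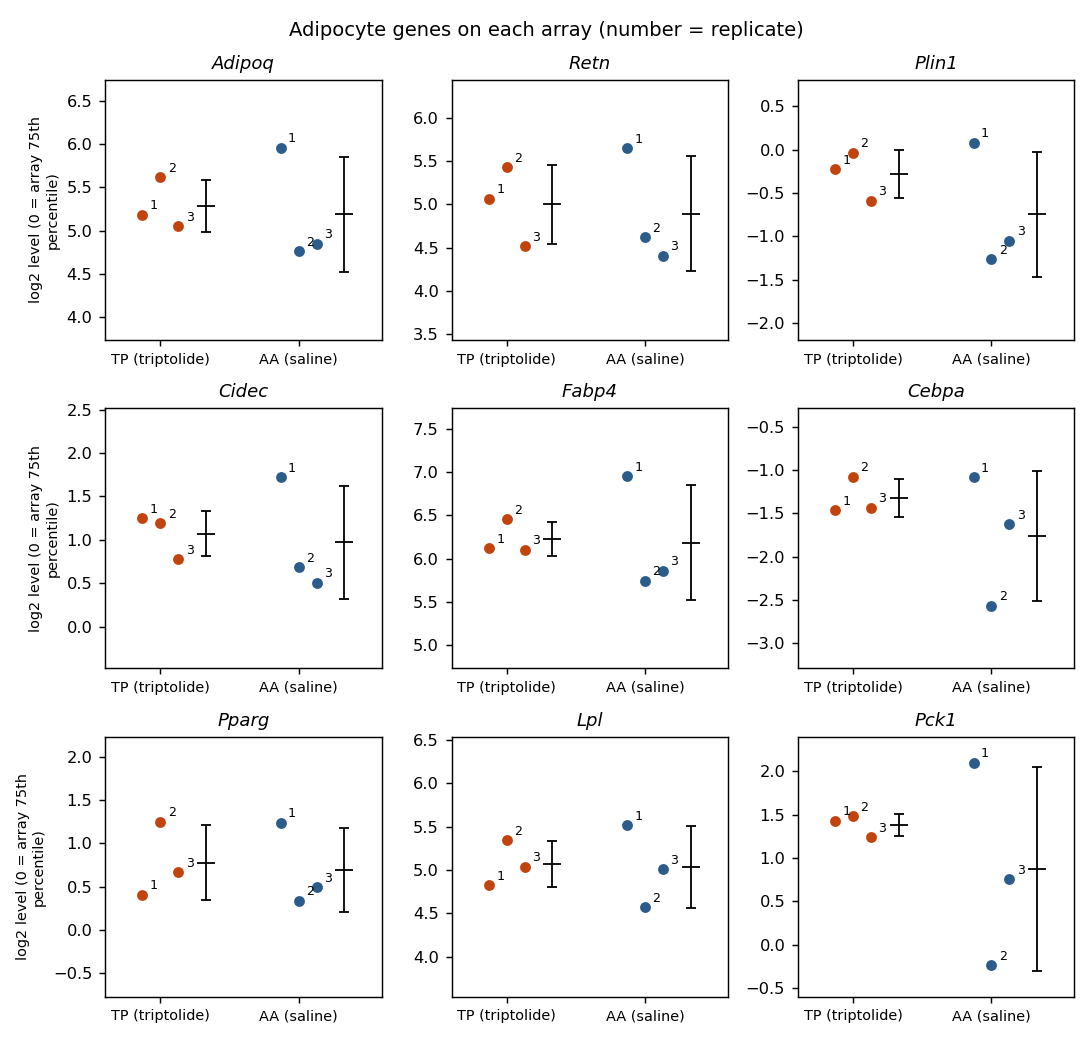
Level of each tested member (log2, 0 is the array's 75th percentile) in the 3 TP arrays (red) and the 3 AA arrays (blue), with the replicate number beside each point and the mean ± SD of the group at its right; every panel spans 3 log2 units. AA 1 stands above the other AA arrays in each panel, and the TP points lie between the AA extremes for most genes.

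Among the secreted factors, Adipoq encodes adiponectin, a hormone made almost wholly by fat cells. Its level was 5.19, 5.62 and 5.05 in TP 1, TP 2 and TP 3, against 5.96, 4.77 and 4.85 in AA 1, AA 2 and AA 3. AA 1 was the highest of all 6 arrays and AA 2 and AA 3 the lowest, so that the triptolide samples fell inside the arthritis range. The means were 5.28 ± 0.30 in TP and 5.19 ± 0.67 in AA (SD, n = 3 each), a log2 difference of 0.094 (SE 0.36, adjusted p = 0.995 by limma). Its 95% interval, from -0.78 to 0.96, covers changes either way, so an equal level in the groups is not shown.

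Retn encodes resistin, an adipokine of fat cells in rodents. It stood at 5.06, 5.42 and 4.52 in TP 1 to TP 3, against 5.64, 4.62 and 4.41 in AA 1 to AA 3. AA 1 and TP 2 were again the highest arrays, and the difference of 0.11 (SE 0.39) was smaller than the SD within either group (0.46 in TP and 0.66 in AA).

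Lep encodes leptin, the hormone by which fat stores signal to the brain. Its probe was printed on 10 spots, of which 1, 2 and 1 were well above background in TP 1 to TP 3, against 9, 1 and 0 in AA 1 to AA 3. The measured levels were -4.89, -4.38 and -5.70 in TP 1 to TP 3, against -4.32, -5.61 and -6.00 in AA 1 to AA 3. AA 1 and TP 2 were once more the highest, though in TP 2 most spots were not well above background, and no fold is given.

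Of the droplet proteins, Plin1 encodes perilipin 1, which coats the large droplet of fat cells and guards it from lipases. Its level was -0.23, -0.038 and -0.59 in TP 1 to TP 3, against 0.078, -1.27 and -1.05 in AA 1 to AA 3. The 3 triptolide samples lay above AA 2 and AA 3 and below AA 1. The group means were -0.28 ± 0.28 in TP and -0.75 ± 0.72 in AA (SD, n = 3 each), a difference of 0.46 (SE 0.38, 1.38-fold, adjusted p = 0.994 by limma), which is smaller than the spread among arthritis samples.

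Cidec encodes a protein that lets small droplets merge into large ones. It stood at 1.25, 1.19 and 0.78 in TP 1 to TP 3, against 1.72, 0.69 and 0.51 in AA 1 to AA 3. As with Plin1, triptolide samples filled the gap between AA 1 and the other arthritis samples, with a difference of 0.10 (SE 0.35).

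Fabp4 encodes the abundant fatty acid carrier of the fat cell cytosol. Its level was 6.12, 6.46 and 6.11 in TP 1 to TP 3, against 6.95, 5.75 and 5.86 in AA 1 to AA 3. The samples kept the order seen for Adipoq at both ends, and the means, 6.23 ± 0.20 in TP and 6.19 ± 0.66 in AA (SD, n = 3 each), differed by 0.042 (SE 0.34, adjusted p = 0.996 by limma).

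Lpl encodes lipoprotein lipase, which frees fatty acids from circulating triglyceride at the capillary wall. Its brighter probe read 4.83, 5.35 and 5.04 in TP 1 to TP 3, against 5.52, 4.57 and 5.01 in AA 1 to AA 3. A second probe read 3.37, 3.64 and 3.63 in TP 1 to TP 3, against 4.17, 3.25 and 3.69 in AA 1 to AA 3. Both had AA 1 highest and AA 2 lowest, but their differences had opposite signs, 0.038 (SE 0.28) and -0.16 (SE 0.26), each within its error.

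Pck1 encodes the cytosolic phosphoenolpyruvate carboxykinase, which in fat makes the glycerol backbone needed to re-esterify fatty acids. Its brighter probe stood at 1.43, 1.48 and 1.24 in TP 1 to TP 3, against 2.10, -0.24 and 0.75 in AA 1 to AA 3. The arthritis samples thus spanned 5.06-fold and the triptolide samples 1.18-fold. The second probe, at -0.026, -0.070 and -0.25 in TP 1 to TP 3 and 0.46, -1.24 and -0.81 in AA 1 to AA 3, spanned 1.17-fold in TP and 3.26-fold in AA, in the same order at both ends. Group differences were 0.51 (SE 0.56, adjusted p = 0.994 by limma) and 0.41 (SE 0.43), smaller than the SD of 1.17 and 0.89 among arthritis samples.

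Of the transcription factors, Pparg, the nuclear receptor on which fat cell identity depends, stood at 0.41, 1.25 and 0.67 in TP 1 to TP 3, against 1.24, 0.34 and 0.49 in AA 1 to AA 3. TP 2 and AA 1 were level with each other and apart from the other 4 samples. The means were 0.77 ± 0.43 in TP and 0.69 ± 0.48 in AA (SD, n = 3 each), a difference of 0.085 (SE 0.33). In the authors' deposited value table, which holds this probe and none of the other leading probes of the members, its log2 values averaged 9.12 in TP and 9.01 in AA.

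Cebpa, the partner of Pparg in switching on late fat cell genes, read -1.47, -1.08 and -1.44 in TP 1 to TP 3, against -1.09, -2.56 and -1.63 in AA 1 to AA 3. AA 2 was far below the other samples, and the difference of 0.43 (SE 0.38, 1.35-fold, adjusted p = 0.994 by limma) was smaller than the SD of 0.75 among arthritis samples.

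The spread between arthritis samples was larger than that between spots of 1 array for the probes printed more than once. Pparg, Lpl and Pck1 each had a probe printed on 10 spots of every array, with spots flagged as outliers left out. The SD between these spots was 0.051 to 0.11 for Pparg, 0.041 to 0.080 for Lpl and 0.034 to 0.15 for Pck1. Between arthritis samples the SD was 0.48, 0.47 and 0.89. Between triptolide samples it was 0.43, 0.26 and 0.12. For Pck1 the spot SD within the triptolide arrays was 0.034 to 0.083, and the upper end of 0.15 was in AA 3. Each level is a mean over up to 10 spots, so its error from the spots is smaller than the spot SD. For the dim Lep probe the spots themselves varied by an SD of 0.24 to 0.60. Spots on 1 array share the labelled RNA, so their SD does not cover labelling or dissection.

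**Figure D2:**
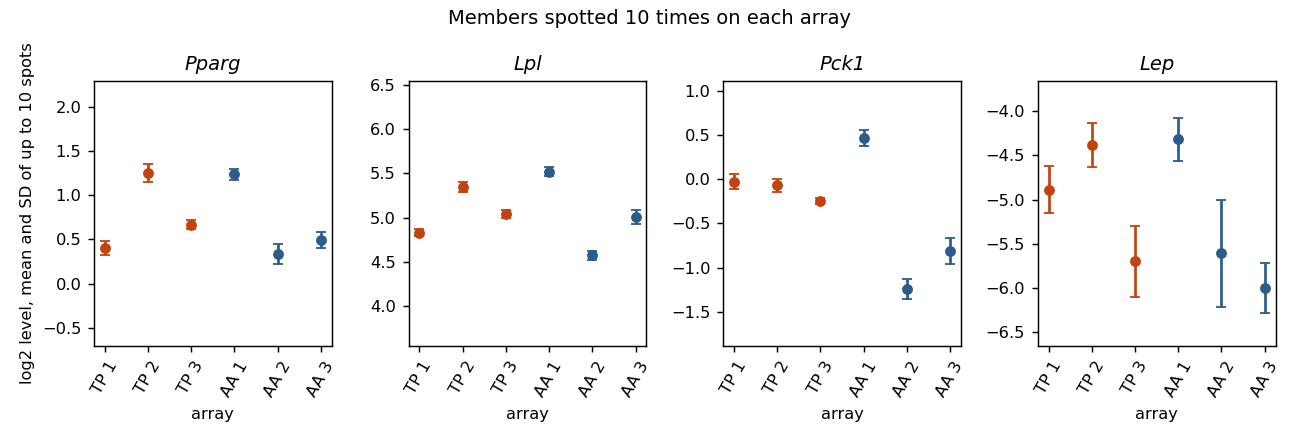
Mean and SD of the log2 level over the replicate spots (10 per array, outliers left out) of 4 member probes, TP arrays in red and AA arrays in blue; every panel spans 3 log2 units. For Pparg, Lpl and Pck1 the bars are short beside the full range over the arrays, though some arrays lie closer together than their bars. For Lep, which was near background, the bars are long.

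Taken relative to its own mean over the 6 arrays, each tested member followed much the same course. The mean over the 9 genes was 0.037, 0.38 and -0.10 in TP 1 to TP 3, against 0.65, -0.62 and -0.34 in AA 1 to AA 3. AA 1 was the highest array for 7 of the 9 genes and TP 2 for the other 2, Pparg and Cebpa. AA 1 and TP 2 were both ahead of the other 4 arrays for 8 of the 9 genes, the exception being Cidec, in which TP 1 was ahead of TP 2. AA 2 was the lowest for 7 genes and AA 3 for 2, Retn and Cidec. Over all tested probes AA 1 was the highest array for 12.1%, and AA 2 or AA 3 the lowest for 44.2%. Each member's correlation with the mean of the other 8 was between 0.86 (Cebpa) and 0.97 (Adipoq) over the 6 arrays, given as a description of samples that all genes share.

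**Figure D3:**
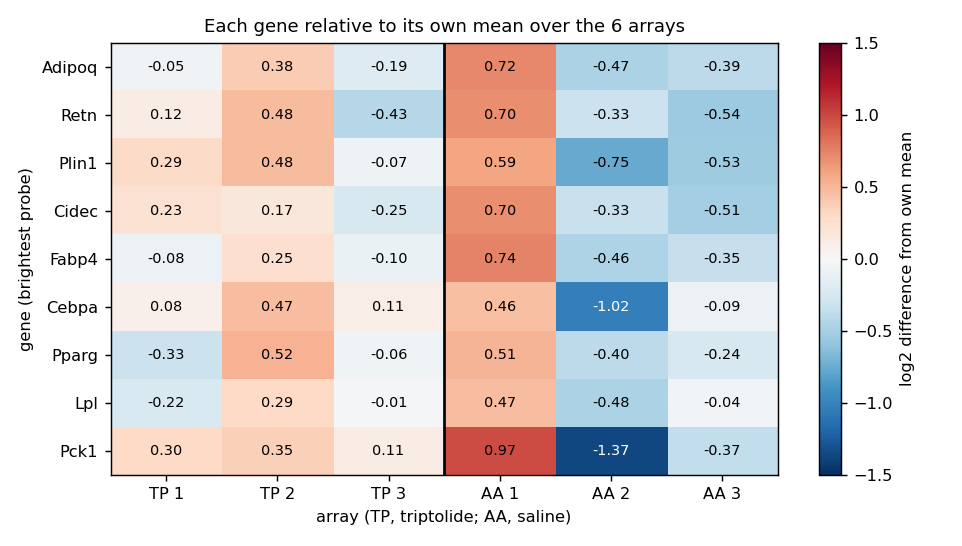
Log2 level of each tested member (rows, brightest probe) relative to its own mean over the 6 arrays (columns, TP left of AA). AA 1 is positive and AA 2 and AA 3 are negative in every row, TP 2 is positive in every row, and Pck1 has the widest range.

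The arthritis samples were farther apart than the triptolide samples for 9 of 9 tested members. The median range of a member, as the highest minus the lowest log2 level in a group, was 0.52 in TP and 1.21 in AA. Over all tested probes the median range was 0.48 in TP and 0.47 in AA, and 48.8% had the wider range in AA. This is a description of 3 samples a group that moved together over the members, with AA 1 at one end, and was not tested.

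All 9 tested members had a higher mean with triptolide, between 1.03-fold and 1.43-fold, where 53.9% of all tested probes did. As the members moved together over the same 6 samples, these are not 9 separate observations. Their median difference was 0.10, against 0.023 over all tested probes, and it depended on single arrays. Without AA 1 the median was 0.48, without AA 2 it was -0.044, without AA 3 it was -0.013 and without TP 2 it was -0.072. With each array weighted by its fit to the others, 9 of the 9 members were lower with triptolide (median -0.26).

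Since AA 1 was the highest arthritis array for each of the 9 genes, leaving it out raises every difference by construction, and no test is read from it. Without AA 1 the difference was 0.87 for Plin1 (SE 0.24) and 1.13 for Pck1 (SE 0.33). Without AA 2, in which both were lowest, it was 0.20 for Plin1 and -0.044 for Pck1, and 2 of the 9 members were higher with triptolide. No label sets AA 1 or AA 2 apart from the other arthritis samples.

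**Figure D4:**
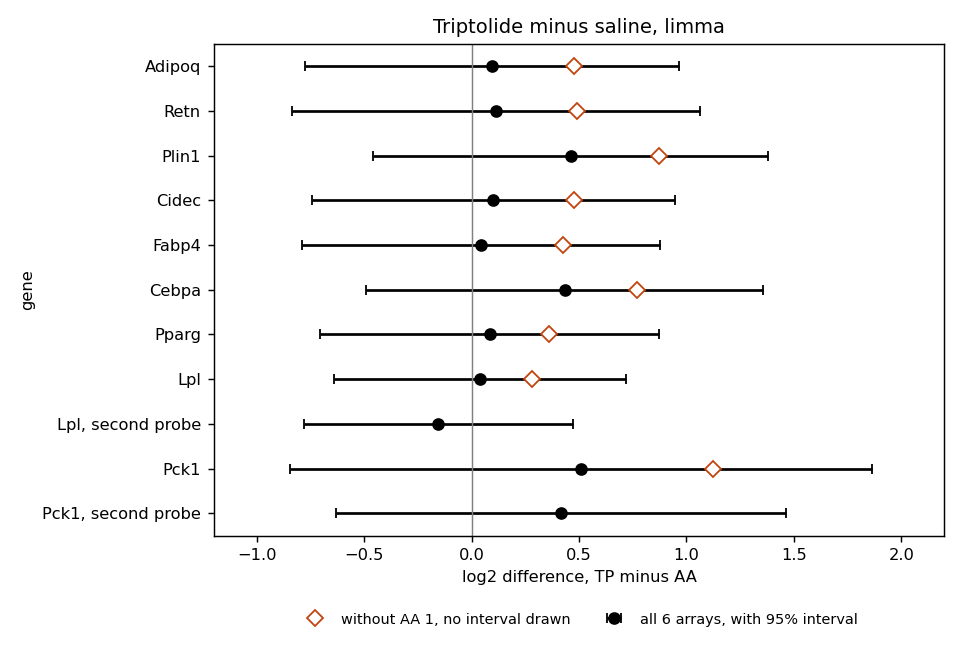
Log2 difference, TP minus AA, of every tested member probe with its 95% interval by limma (black), and for the brightest probe of each gene the difference without AA 1 (open diamonds). All intervals of the 6-array fit include 0. The diamonds lie to the right of the black points by construction, since AA 1 was the highest arthritis array for each gene shown.

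The slides bear on these values. Per the file headers, TP 2 and TP 3 were on slide 2 and TP 1 shared slide 1 with AA 1 to AA 3, so slide and group are largely confounded. Within slide 1, which sets TP 1 alone against the 3 arthritis arrays, 5 of 9 members were higher in TP 1, the median difference was 0.17, and Adipoq, Fabp4, Lpl and Pparg stood at -0.0036, -0.063, -0.21 and -0.28. A fit with slide as a block gives these same differences by construction. Slide 2 held no arthritis array, so that fit too sets TP 1 alone against AA 1 to AA 3.

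Marker lists of other tissues moved between the same samples. The skeletal muscle list (14 of its 15 genes tested, Myh4 being dim) had a summed level of 4.26 to 125 in TP and 5.48 to 7113 in AA, on a linear scale where 1 is the array's 75th percentile. AA 2, the lowest array for most fat cell genes, was the array of 7113. The adipocyte list itself summed to 164 to 229 in TP and 134 to 293 in AA. The endothelial list (10 of 10 tested), of a cell type that also makes Fabp4, summed to 38.9 to 103 in TP and 50.5 to 56.0 in AA, with TP 2 highest. The macrophage list (9 of 10 tested, Marco being dim) summed to 232 to 400 in TP and 199.8 to 342 in AA and was lowest in TP 2 and AA 2.

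The smooth muscle list (6 of 7 tested) summed to 11.3 to 96.2 in TP and 17.0 to 123 in AA. AA 2 was highest in this sum, whereas TP 2 was highest in the mean of its log2 levels (2.61, against 0.55 in AA 2). The nerve list (8 of 8 tested) summed to 56.4 to 262 in TP and 57.0 to 94.0 in AA, with TP 2 highest. The synovial fibroblast list (10 of 10 tested) summed to 718 to 805 in TP and 737 to 1150 in AA, with AA 1 highest in this sum, whereas AA 3 was highest in the mean of its log2 levels (0.60, against 0.47 in AA 1). Of these 6 lists of other tissues none had an AA 1 maximum for as many of its genes as the fat cell list (7 of 9), the fibroblast list coming next with 4 of 10. The part of tissue makeup in the members' values was not tested. A fit with the muscle mean as a covariate gave a members' median difference of 0.092. Relative to its own mean, that covariate was 0.78, -3.29 and 2.07 in TP 1 to TP 3, against -3.91, 8.42 and -4.07 in AA 1 to AA 3. Its group averages were thus close together beside its spread, so this fit could hardly move the difference and nothing is read from it.

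**Figure D5:**
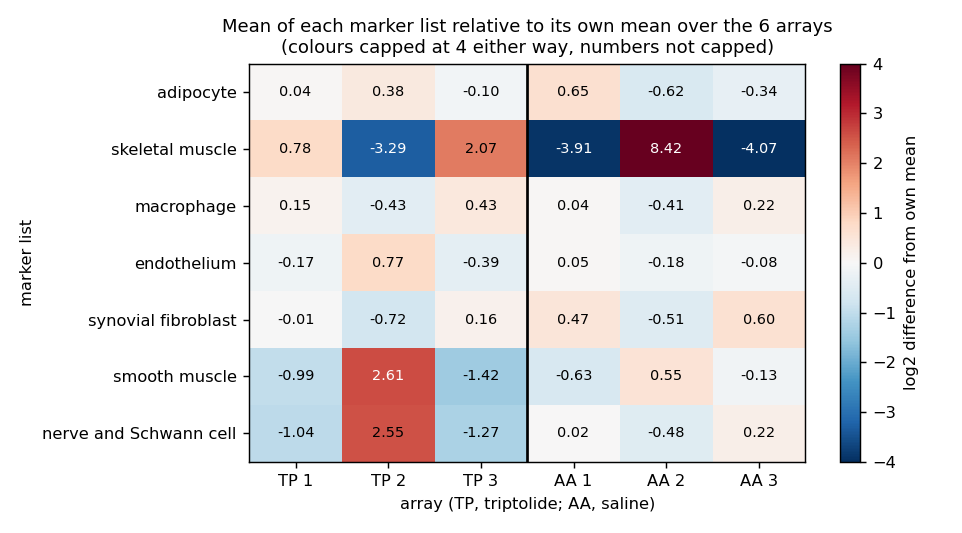
Mean log2 level of each marker list relative to its own mean over the 6 arrays (columns, TP left of AA), with colours capped at 4 in either direction. The adipocyte list is highest in AA 1 and lowest in AA 2, the muscle list is highest in AA 2 by far, and the smooth muscle and nerve lists are highest in TP 2.

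Other genes of fat storage were read from 5 lists of related genes, and none of their tested genes passed the threshold by limma over all probes. Before adjustment 3 of their 49 tested genes (6.12%), G0s2, Plin3 and Srebf1, had a p under 0.05, where 3.23% of all tested probes did. The counts of higher genes below stand beside the 53.9% of all tested probes that were higher, and each list's median moved with single arrays. Groups did not overlap for 2 of 10 droplet coat and lipolysis genes, 1 of 10 regulators and 1 of 14 uptake and synthesis genes. No gene of the remaining lists was apart, and 8.64% of all tested probes were. The genes named below were picked mostly for a small unadjusted p, so groups apart among them follow from that choice. Of the adipokines and their receptors, 6 of 9 tested were higher with triptolide. Their median difference of 0.15 ran, with 1 array left out at a time, between -0.027 (without TP 2) and 0.31 (without TP 3), and was -0.12 with array weights. Cfd, which encodes adipsin, a complement protease secreted by fat cells, stood at 8.38, 8.95 and 8.21 in TP 1 to TP 3, against 8.91, 7.97 and 8.00 in AA 1 to AA 3. It had the members' order, with AA 1 and TP 2 high. The receptor gene Adipor1 differed by -0.14 (SE 0.17), Apln, encoding the peptide apelin, by 0.33 (SE 0.24), and Cdh13, encoding a cadherin that binds adiponectin, by -0.50 (SE 0.36), with AA 2 highest at 4.50. Without AA 2 the difference of Cdh13 was -0.11, and without AA 1 it was -0.82.

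Of the droplet coat and lipolysis genes, 7 of 10 tested were higher. Their median of 0.17 ran between 0.014 (without AA 3) and 0.35 (without AA 1). G0s2 encodes an inhibitor of the main triglyceride lipase of fat cells. It stood at 4.93, 5.34 and 4.85 in TP 1 to TP 3, against 4.81, 3.74 and 4.01 in AA 1 to AA 3. The groups just failed to touch, at 4.85 and 4.81, with a difference of 0.85 (SE 0.31, 1.80-fold, adjusted p = 0.994 by limma). A second probe assigned to this gene lies on the opposite strand per the file and is not used as a reading of it. Plin3, a droplet coat gene of many cell types, was at 0.23, 0.34 and 0.27 in TP 1 to TP 3, against 0.011, -0.21 and -0.033 in AA 1 to AA 3, also without overlap (0.36, SE 0.14, adjusted p = 0.994 by limma). The lipase genes Mgll and Lipe differed by 0.39 (SE 0.22) and 0.14 (SE 0.39). By a dimmer probe of each, the differences were 0.47 (SE 0.29) for Mgll and -0.022 (SE 0.34) for Lipe. Plin4, a coat gene of fat cell droplets, was on the list but was not tested.

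Of the genes of fatty acid uptake and triglyceride synthesis, 9 of 14 tested were higher. Their median of 0.13 ran between -0.073 (without AA 2) and 0.33 (without AA 1), and was -0.13 with array weights. Dgat2, which encodes the enzyme of the last step of triglyceride synthesis, had a difference of 0.46 (SE 0.30) by its brightest probe, and of 0.45 (SE 0.20) and 0.39 (SE 0.26) by its other probes. The first ran between 0.25 (without TP 2) and 0.73 (without AA 1). Gpihbp1, which holds lipoprotein lipase at the capillary wall, differed by -0.43 (SE 0.27; -0.17 without AA 1 and -0.62 without AA 3), and Cd36, a fatty acid receptor of fat, muscle and endothelium, by -0.0070 (SE 0.24). Lpin1, a phosphatidate phosphatase gene, was well above background on 0 of 3 triptolide arrays and 3 of 3 arthritis arrays, so it was tested only through the arthritis group and its difference is given as a description. Its levels were -4.75, -4.49 and -5.51 in TP 1 to TP 3, against -4.17, -3.05 and -4.44 in AA 1 to AA 3, with the muscle-rich AA 2 highest. For a bound, dim triptolide arrays were set to the lowest signal well above background where that is higher. In the main processing the arthritis mean was then at least 1.67-fold the triptolide mean, and at least 1.25-fold without AA 2. The measured difference in that processing was -0.61 without AA 2. Over all 6 arrays it was -0.37 with normexp and -0.24 with normexp and quantile normalization, so the bounds are those of the main processing only.

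Of the regulators of fat cell differentiation, 7 of 10 tested were higher. Their median of 0.13 ran between 0.031 (without TP 2) and 0.22 (without TP 3), and was -0.0061 within slide 1. Srebf1, a transcription factor of lipid synthesis, stood at 3.59, 3.62 and 3.42 in TP 1 to TP 3, against 3.24, 3.15 and 2.98 in AA 1 to AA 3. It did not follow the members' order, since AA 1 was below each triptolide sample, and the groups did not overlap on this probe (0.42, SE 0.15, 1.34-fold, adjusted p = 0.994 by limma) or on the second (0.45, SE 0.14). Zfp423 and Cebpd, an early preadipocyte regulator and an early partner of Cebpa, differed by -0.23 (SE 0.17) and 0.23 (SE 0.17).

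Of the genes of glucose entry and glycerol formation, 3 of 6 tested were higher. Their median of 0.031 ran between -0.15 (without TP 2) and 0.19 (without AA 1), and was -0.16 within slide 1, -0.25 with array weights and -0.095 with normexp background correction. Slc2a4, the insulin-sensitive glucose transporter of fat and muscle, stood at 1.16, 1.72 and 0.82 in TP 1 to TP 3, against 1.35, 5.09 and 0.59 in AA 1 to AA 3. The level of 5.09 was in AA 2, the array highest in muscle markers. Fbp1 and G6pc1, enzymes of glucose formation, differed by -0.52 (SE 0.43) and 0.31 (SE 0.35), and a dimmer probe of Fbp1 went the other way (1.22, SE 0.63). The brighter one ran between -0.85 (without AA 2) and -0.15 (without AA 1). G6pc1 was well above background on 4 of the 6 arrays.

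Among 11588 tested genes outside every list, the 8 whose level was most like the members' mean over the 6 arrays had a Pearson correlation of 0.97 to 0.995, a description with no test. They were Prkar2b (0.995), a regulatory subunit of protein kinase A, Snrk (0.99), a kinase gene, Plekhn1 (0.98), Exog (0.98), a mitochondrial nuclease gene, Adig (0.97), which encodes adipogenin, a small protein of fat cells, Ighmbp2 (0.97), a helicase gene, Phrf1 (0.97) and Krt4 (0.97), a keratin gene. Prkar2b stood at 1.82, 1.99 and 1.63 in TP 1 to TP 3, while in AA it was highest in AA 1 (2.21) and lowest in AA 2 (1.30). Adig stood at 1.83, 1.93 and 1.72 in TP 1 to TP 3, against 2.28, 1.11 and 1.53 in AA 1 to AA 3, the order of Adipoq at the top and bottom. The second probe of Prkar2b was highest in AA 1 (0.67) and lowest in AA 2 (-0.26), whereas that of Ighmbp2 was highest in TP 3 (-1.44). That of Exog, a dim probe, was highest in TP 2 (-3.04) and lowest in AA 3 (-4.53).

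Because the members moved together, the 250 bases before their annotated starts were read for letters known as binding sites (RefSeq, build GRCr8, a different build from that of the probes). The table used held 8 of the 10 members, without Fabp4 and Lpl. AGGTCA, the half-site of nuclear receptors, was found on either strand in 2 of the 8, Retn and Pck1, and in 13.7% of 27457 upstream windows of all genes. TTGCNNAA, a form of the C/EBP site, was found in 3 of the 8, Lep, Plin1 and Cidec, and in 9.2% of all windows. CCAAT was found in 3 (Adipoq, Lep and Plin1) and in 34.3% of all windows, and TATAAA in 1 (Cebpa) and in 13.1%. A match describes letters only, and none in a window says nothing of the factor elsewhere.

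The windows of Adipoq, Plin1, Cidec and Pck1 are printed, as a gene with neither of the first 2 motifs, a pair with the C/EBP letters and 1 with the half-site. Capitals mark AGGTCA and TTGCNNAA, which do not overlap here.
Adipoq, chr11:91240170-91240419, minus strand: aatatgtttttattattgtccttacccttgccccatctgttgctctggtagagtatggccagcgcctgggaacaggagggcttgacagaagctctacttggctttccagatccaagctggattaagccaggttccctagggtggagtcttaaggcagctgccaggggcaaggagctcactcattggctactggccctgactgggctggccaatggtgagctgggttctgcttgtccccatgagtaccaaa
Plin1, chr1:143086149-143086398, minus strand: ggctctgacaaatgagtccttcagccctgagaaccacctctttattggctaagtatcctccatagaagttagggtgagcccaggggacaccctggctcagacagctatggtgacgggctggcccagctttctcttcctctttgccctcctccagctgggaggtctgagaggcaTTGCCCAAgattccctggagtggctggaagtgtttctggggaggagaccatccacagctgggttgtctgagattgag
Cidec, chr4:148137116-148137365, minus strand: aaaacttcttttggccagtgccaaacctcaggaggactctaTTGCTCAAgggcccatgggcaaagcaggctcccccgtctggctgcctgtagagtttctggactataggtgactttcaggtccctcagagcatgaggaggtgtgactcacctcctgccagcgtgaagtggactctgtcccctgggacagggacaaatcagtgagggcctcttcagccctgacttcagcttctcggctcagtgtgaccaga
Pck1, chr3:182348322-182348571, plus strand: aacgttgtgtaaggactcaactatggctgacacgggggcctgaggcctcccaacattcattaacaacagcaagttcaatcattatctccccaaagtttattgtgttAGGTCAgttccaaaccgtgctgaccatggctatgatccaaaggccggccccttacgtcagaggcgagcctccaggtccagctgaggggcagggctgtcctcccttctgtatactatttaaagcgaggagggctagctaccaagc
The C/EBP letters began 77 bases before the start in Plin1 and 209 in Cidec, and the half-site 144 bases before it in Pck1.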

How the data were processed

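Cy3-labelled cRNA from 0.5 ug of RNA of each sample was hybridised to 1-colour arrays, per the labels' protocols. The deposited scanner files hold intensity, background-subtracted and detrended within each array, written by Agilent Feature Extraction 10.7.3.1 per the file headers (the submitters' processing notes name 9.1), with nothing normalized between arrays. The deposited value table of 167 rows holds log2 values of unstated normalization. Its columns have medians of 4.68 to 5.54, and 160 rows matched a probe and correlated with their own array's log2 intensity at 0.9998 or more.

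Each array has 45018 spots, 43379 not controls. Between 59.6% and 65.1% of these were well above background, and none was saturated. Over the 6 arrays together, 10 readings of the members' spots were flagged as outliers (8 of Lep, 2 of Lpl) and left out. From the intensity, log2 was taken, each array's 75th percentile subtracted and spots of a probe averaged. Probes well above background on at least 3 of 6 arrays with a value on every array were tested (25772, with 5 incomplete probes left out). Names came from the RefSeq gene table for 18028 probes by accession, 3169 by symbol and 402 by synonym. With 3 arrays a group, their number limits the precision.

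The comparison of TP with AA used limma (version 3.58.1, under R 4.3.3; TP minus AA, Benjamini-Hochberg over all tested probes). The scripts were tested on simulated data. Named genes are all members, up to 3 genes of each related list by unadjusted p with Cfd, Plin4, Cd36, Lipe and Slc2a4 added, and the 8 most like the members. The members and lists were chosen with earlier results of these data known. Same-numbered samples did not deviate together (correlations of -0.165, -0.131 and 8.3e-04 across probes), so the replicate number was not used in the main comparison. Alternatives covered background correction, scaling, filters, slide, replicate number, array weights, a muscle covariate, the choice of probe, the deposited value table and each array left out.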

Additional observations from a re-analysis of the deposited data

How the results depend on the processing

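No member passed the adjusted threshold in the 17 alternatives that gave a test, while the mean over probes and the deposited value table gave values only. With the replicate number as a block 0 probes passed and the members' median was again 0.10. With array weights 1 probe passed, and the differences turned to -0.39 for Adipoq, -0.50 Retn, -0.11 Plin1, -0.36 Cidec, -0.36 Fabp4, -0.070 Cebpa, -0.26 Pparg, -0.26 Lpl, -0.21 Pck1, -0.090 Apln, 0.042 Adipor1, -0.26 Cfd, -0.46 Lipe, -0.074 G6pc1, -0.23 Prkar2b, -0.12 Snrk, -0.20 Plekhn1, -0.14 Exog, -0.20 Adig, -0.0024 Ighmbp2, -0.065 Phrf1 and -0.22 Krt4. Within slide 1, and so by construction in the fit blocked on slide, G6pc1 (-0.10) and Krt4 (-0.070) turned. So did Adipoq (-0.0036), Fabp4 (-0.063), Pparg (-0.28) and Lpl (-0.21). Normexp background correction turned Cd36 (0.095), G6pc1 (-0.060), Snrk (-0.058) and Phrf1 (-0.074), and with quantile normalization as well Retn (-0.0029), Cd36 (0.072) and Phrf1 (-0.081). Median scaling turned Phrf1 (-0.011), and the mean over probes Lpl (-0.059). Leaving out 1 array at a time gave -0.12 to 0.48 for Adipoq, -0.13 to 0.49 for Retn, -0.13 to 0.48 for Cidec, -0.18 to 0.42 for Fabp4, -0.15 to 0.36 for Pparg, -0.19 to 0.28 for Lpl, -0.044 to 1.13 for Pck1, 0.20 to 0.87 for Plin1 and 0.031 to 0.77 for Cebpa. It gave -0.15 to 0.21 for Cd36, -0.20 to 0.42 for Lipe, -1.98 to 0.27 for Slc2a4, -0.0045 to 0.51 for G6pc1, -0.039 to 0.41 for Prkar2b, -0.017 to 0.23 for Snrk, -0.037 to 0.31 for Plekhn1, -0.055 to 0.36 for Exog, -0.077 to 0.51 for Adig, -0.040 to 0.11 for Phrf1 and -0.037 to 0.47 for Krt4. Lpin1 was not tested with the filter at all 6 arrays. Of 25772 tested probes, 833 had an unadjusted p under 0.05 by limma. The number was 1251 with normexp and quantile, 4343 with array weights, 1587 with the muscle covariate and 1656 without TP 2. With no filter it was 1756, but of 41006 probes. The causes were not tested. With 3 arrays a group, intervals were wide, and Lep lay near background.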
